A study of Homo sapiens with 6 samples.

Results

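The genes examined here encode the enzymes that make purine and pyrimidine nucleotides, turn them into deoxynucleotides for DNA, and supply the one-carbon units and serine that this synthesis uses. They were chosen from a list of 40 gene symbols, and a listed gene entered when a probe set (the group of probes that reads 1 transcript) was annotated to it alone. This held for 38 of the 40, among 18417 genes tested; ADSS2 is not used here, and NME1 shared its only probe set with the NME1-NME2 readthrough. Where a gene had several such probe sets, the one with the highest mean was used. The 38 genes comprise 13 of the purine steps, 7 of the pyrimidine steps and the nucleoside diphosphate kinases, 10 of the deoxynucleotide steps, and 8 of the folate and serine steps.

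Expression was measured on Affymetrix Gene 1.0 ST arrays in RL, an established B-cell lymphoma line with the t(14;18) translocation. The treated group was RL cells given LY317615 for 48 h (3 arrays), and its control was untreated RL cells (3 arrays, also marked 48 h, with no vehicle named). LY317615 is enzastaurin, which inhibits the beta form of protein kinase C. The labels write its dose as 2.5 mM, a unit that could not be checked here. All arrays come from 1 cell line. The replicates are described as independent, yet nothing in the labels says that they were separate cultures. The p-values therefore set each group difference against the spread of these arrays only. Some of that spread may be technical, and the number of arrays limits the precision.

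A purine ring is built stepwise on phosphoribosyl pyrophosphate (PRPP), ending in IMP, the common precursor of AMP and GMP. A pyrimidine ring is made first and then joined to PRPP, giving UMP and, from it, CTP. Ribonucleotide reductase turns ribonucleotides into deoxynucleotides, and thymidylate synthase methylates dUMP to the thymidine nucleotide with a folate cofactor. Folates take their one-carbon units mostly from serine, in the cytosol and in mitochondria. Dividing lymphocytes rely on these pathways for RNA and DNA synthesis, and several of the enzymes are drug targets in leukaemia and lymphoma.

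LY317615 replicate 3 stood apart from the other LY317615 arrays, with an array weight (limma's estimate of relative precision) of 0.376 against 1.04 to 1.51 for the other 5 arrays. The B-cell markers CD79A, CD79B, MS4A1, PAX5, CD22 and CD37 had untreated log2 intensities at percentiles 87.0 to 98.9 of all genes. The 18 fixed markers of T cells, myeloid cells, and epithelial or stromal cells were at percentiles 5.32 to 48.9, and no detection calls were used. Markers also changed with treatment. Of the 6 B-cell markers 4 fell, among them CD22 (-1.16 ± 0.10, log2 fold change ± SE) and MS4A1 (-0.81 ± 0.09), and CD37 rose (1.20 ± 0.08). Of the 6 myeloid markers 3 rose, CD14 most (0.50 ± 0.10); 1 T-cell marker rose and 1 fell, and 0 of the 6 epithelial or stromal markers passed. Their part in the changes described here was not tested.

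Promoter sequences are shown for members that moved together, and they come from RefSeq on GRCh38.p14. PPAT and PAICS, which encode enzymes of the purine trunk, are transcribed away from each other on chromosome 4, and both fell in treated cells. The 136 bases between the PPAT start and a PAICS start, at chr4:56435616-56435751 and printed on the minus strand, read toward PPAT. Capitals mark the GC-box core GGGCGG or its reverse complement.
PPAT-PAICS: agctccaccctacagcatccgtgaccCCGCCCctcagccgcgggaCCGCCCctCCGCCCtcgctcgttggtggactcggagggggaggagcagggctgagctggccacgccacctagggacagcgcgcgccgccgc
The stretch holds 3 GC-box cores, and the PAICS gene record in RefSeq also extends to another, more distant start. GGGCGG, searched on both strands from 250 bases before to 50 bases after each listed start, was present for 65.9% of 14239 tested genes with a RefSeq promoter and for 26 of 33 members with one.

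The hexamer CACGTG, the E-box letters that MYC and related factors bind, equals its own reverse complement. It was present in the same window for 10.9% of the tested genes and for 7 of the 33 members: PPAT, PAICS, ATIC, DHODH, DCK, MTHFD1 and MTHFD1L. All 7 were lower in treated cells on the deposited scale. After cyclic loess, a scaling described below, PPAT, DHODH and MTHFD1L were still lower, and PAICS, ATIC, DCK and MTHFD1 did not pass. The copies that lie before the gene's start are shown with CACGTG in capitals; PPAT and PAICS share 1 copy. They lie at chr4:56435780-56435809 (PPAT, minus strand), chr2:215312001-215312030 (ATIC), chr16:72008573-72008602 (DHODH), chr4:70993521-70993550 (DCK), chr14:64388326-64388352 (MTHFD1) and chr6:150866320-150866349 (MTHFD1L), the last 5 on the plus strand.
PPAT: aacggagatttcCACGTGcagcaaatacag
ATIC: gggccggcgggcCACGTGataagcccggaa
DHODH: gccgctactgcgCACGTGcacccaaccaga
DCK: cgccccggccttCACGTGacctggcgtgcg
MTHFD1: ccagtccctaagCACGTGggttgggtt
MTHFD1L: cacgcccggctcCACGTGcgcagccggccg
TYMS, which rose, is shown for its E2F-type letters. TTTGGCGC, TTTCGCGC or TTTCCCGC, on either strand, was present for 4.61% of the tested genes and for 5 of the 33 members: PRPS2, GART, TYMS, DCK and DUT. Of these, PRPS2, GART and DCK were lower, TYMS was higher and DUT did not pass. The TYMS copy, in capitals as the reverse complement of TTTCCCGC, lies at chr18:657603-657632 on the plus strand.
TYMS: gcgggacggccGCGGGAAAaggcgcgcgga
In all, 6 motif families were searched, all chosen after the values were seen, and GGGCGG was added last, once the PPAT-PAICS stretch had been found to hold no CACGTG. The other 3 were TGATGNAA, in 2 of the 33 members and 3.59% of the tested genes; the NRF1 motif, in 5 members and 7.09% of genes; and CCAAT, in 15 members and 42.2% of genes. The 5 members with the NRF1 motif were PAICS, APRT, CTPS1, DTYMK and MTHFD1. These also were lower, but after cyclic loess only DTYMK passed. How many of all tested genes with each motif were lower was not counted. For comparison, 21 of the 38 measured genes were lower. A match is a description of the letters, and whether any factor binds there was not measured.

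In the deposited values, less RNA was measured in LY317615-treated RL cells for most genes of the early purine steps and of pyrimidine ring synthesis. The same held there for serine and folate metabolism. After cyclic loess, described below, 4 of the 13 purine genes and 4 of the 8 folate and serine genes were lower. The share of all genes lower there was 16.2%. Of the deoxynucleotide genes 30% were lower and 20% higher, against 21.4% and 14.2% of all genes. Of the 38 measured genes, 21 fell and 5 rose at an adjusted p under 0.05, and 12 did not pass (limma, with Benjamini-Hochberg adjustment over all 18417 genes). The corresponding shares of all tested genes were 21.4% lower and 14.2% higher, 35.7% in all. The median log2 fold change was -0.26 over the 38 genes and 0.02 over all genes. LY317615 and untreated arrays were fully apart in 32 of the 38 genes, and in 49.8% of all genes.

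Changes in these arrays also went with intensity. Most members lie among the genes with high values, and such genes fell more often. With all genes cut into 5 equal bins by mean intensity, the brightest bin held 27 members, of which 15 were lower and 2 higher, against 47.6% lower and 9.47% higher among all genes in it. In the next bin 3 of the 6 members and 37% of all genes were lower, and 1 member and 12.5% of all genes were higher. Cyclic loess, a scaling that removes trends with intensity, left 12 members lower and 9 higher, with a median of -0.06, against 16.2% lower and 14.1% higher among all genes. No called member changed sign under it. With array medians set equal, 22 members were lower and 5 higher, against 24.6% and 9.83% of all genes. Without LY317615 replicate 3, 18 were lower and 4 higher, against 19% and 11.5% of all genes.

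**Figure D1:**
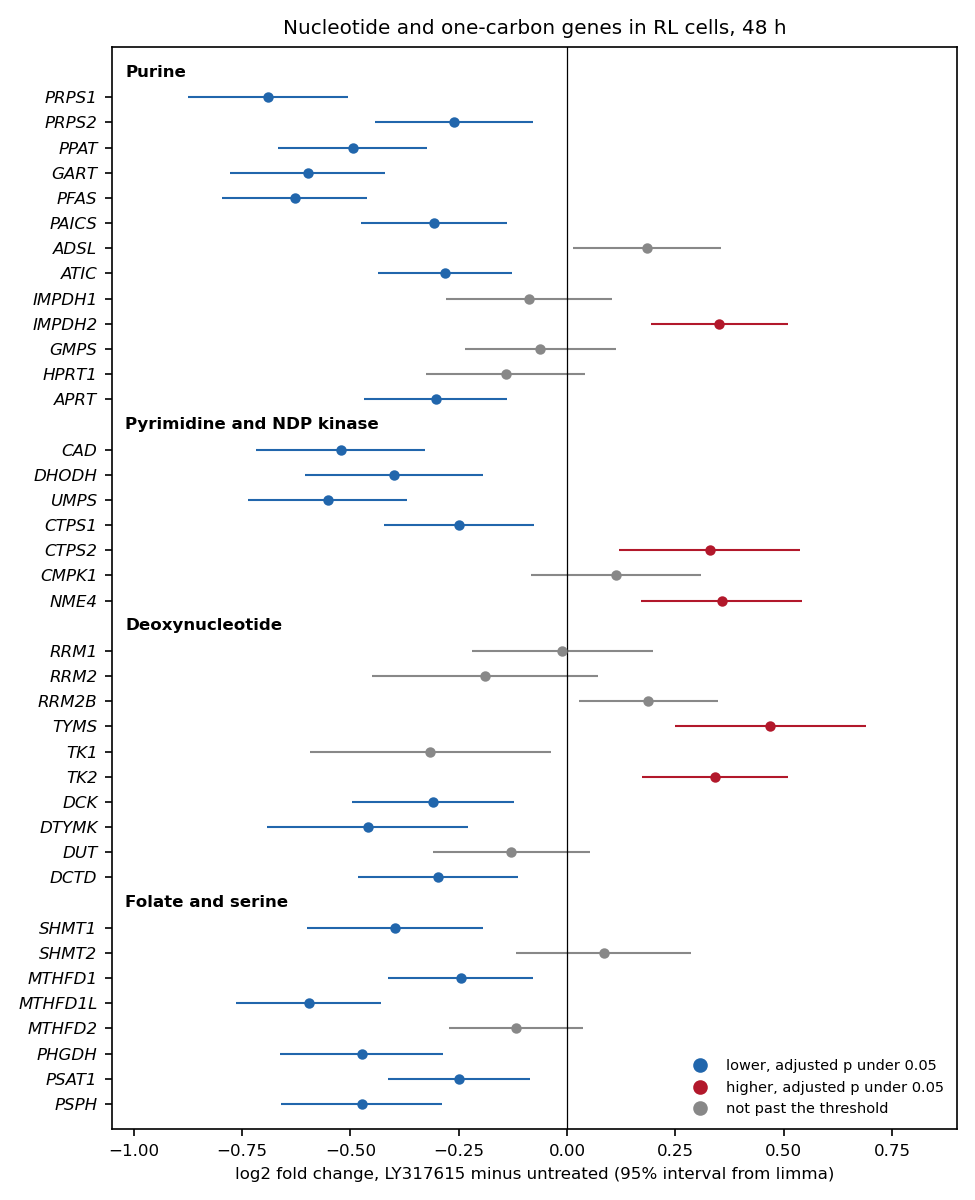
Log2 fold change of each measured gene (x axis, LY317615 minus untreated, with the 95% interval from limma; 3 arrays a group), listed by step. Blue points are the 21 lower genes, red points the 5 higher genes (IMPDH2, CTPS2, NME4, TYMS and TK2) and grey points the 12 that did not pass.

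Of the 13 purine genes, 8 fell and 1 rose, with a median change of -0.28. The shares, 61.5% lower and 7.69% higher, stand beside 21.4% and 14.2% of all genes. In the brightest bin 5 of 9 were lower, and in the next 3 of 4, against 47.6% and 37% of all genes there. After cyclic loess 4 fell and 2 rose, with a median of -0.08, against 16.2% lower and 14.1% higher among all genes. The PRPP synthetases feed all purine and pyrimidine synthesis. PRPS1 had log2 intensities of 10.03, 10.06 and 9.92 in LY317615 arrays, against 10.63, 10.80 and 10.65 in untreated arrays. It had the largest fall of the 38 genes, -0.69 ± 0.08 (log2 fold change ± SE, adjusted p = 0.000377 in limma), a 1.61-fold lower level. PRPS2 fell by less, at -0.26 ± 0.08 (adjusted p = 0.0331). That call was lost without LY317615 replicate 1 or 3 or untreated replicate 1 or 2 (adjusted p = 0.0508 to 0.103), and after cyclic loess the change was -0.08.

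In the trunk from PRPP to IMP, 5 of 6 genes fell. In the brightest bin 4 of 5 were lower, against 47.6% of all genes there. PPAT, which encodes the amidotransferase that commits PRPP to purines, had 10.17, 10.05 and 10.20 in LY317615 arrays, against 10.68, 10.61 and 10.61 in untreated arrays. The trifunctional enzyme gene GART had 10.70, 10.56 and 10.60, against 11.18, 11.31 and 11.17 in untreated arrays. PFAS, the gene of the glutamine-using step between GART activities, had 7.28, 7.19 and 7.15, against 7.84, 7.87 and 7.80 in untreated arrays. In all 3 genes every LY317615 array lay below every untreated array. Their log2 fold changes were -0.49 ± 0.08 for PPAT (adjusted p = 0.00135), -0.60 ± 0.08 for GART (adjusted p = 0.000637) and -0.63 ± 0.07 for PFAS (adjusted p = 0.000373). After cyclic loess PPAT was at -0.27 and GART at -0.38, still past the threshold.

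PAICS and ATIC, genes of bifunctional enzymes later in the trunk, changed by -0.31 ± 0.07 and -0.28 ± 0.07 (adjusted p = 0.0123 and 0.0125 in limma), and after cyclic loess by -0.09 and -0.06, without passing. PAICS also missed the threshold without untreated replicate 3 (adjusted p = 0.0539). ADSL, whose lyase acts between them and again on the way to AMP, had a positive value. It read 9.27, 9.35 and 9.28 in LY317615 arrays, against 9.18, 9.03 and 9.13 in untreated arrays, and its change of 0.19 ± 0.08 did not pass (adjusted p = 0.0847). It passed after cyclic loess (0.40, adjusted p = 0.00527), with an intensity trend in limma's prior variance (0.0275) and without the dimmest 30% of genes (0.0484). SON, the gene that starts beside GART in the opposite direction on chromosome 21 and was picked as its neighbour after the values were seen, also fell, at -0.40 ± 0.07 (adjusted p = 0.0031), but not after cyclic loess (-0.18, adjusted p = 0.0599).

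Beyond IMP, no gene of the guanine branch passed as lower. IMPDH2, the gene of the main IMP dehydrogenase of dividing cells and a target of mycophenolate, rose. It had 11.38, 11.44 and 11.40 in LY317615 arrays, against 11.10, 11.02 and 11.04 in untreated arrays, a change of 0.35 ± 0.07 (adjusted p = 0.005) and 0.56 after cyclic loess. Its isozyme gene IMPDH1 changed by -0.09, with a 95% interval of -0.28 to 0.10, and the GMP synthetase gene GMPS by -0.06, with an interval of -0.24 to 0.11. The groups overlapped in both genes. RefSeq lists 11 pseudogenes named after IMPDH1. It also lists 8 for DUT, 7 each for PAICS and MTHFD2, 4 for PSAT1 and 3 each for HPRT1 and RRM2. For PRPS1, PPAT, CMPK1 and TYMS there are 2 each, and for GMPS, SHMT1, MTHFD1 and PSPH 1 each. Whether probes of these genes also read the pseudogenes was not tested.

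The salvage enzymes rebuild nucleotides from free bases. APRT, which salvages adenine, fell, at -0.30 ± 0.07 (adjusted p = 0.0121), a call not kept after cyclic loess (-0.12) or without untreated replicate 3 (adjusted p = 0.0555). HPRT1, which salvages hypoxanthine and guanine, had a change of -0.14 with a 95% interval of -0.32 to 0.04.

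Of the 7 genes of the pyrimidine steps and nucleoside diphosphate kinases, 4 fell and 2 rose, with a median change of -0.25. The shares, 57.1% lower and 28.6% higher, stand beside 21.4% and 14.2% of all genes. In the brightest bin 3 of 4 were lower, against 47.6% of all genes there. All 3 genes of pyrimidine ring synthesis fell. CAD encodes the protein that carries the first reactions of the pathway. It had 8.76, 8.54 and 8.51 in LY317615 arrays, against 9.13, 9.14 and 9.11 in untreated arrays. DHODH, the gene of the mitochondrial dihydroorotate dehydrogenase, had 6.69, 6.86 and 6.82, against 7.24, 7.28 and 7.03 in untreated arrays. UMPS, whose enzyme makes UMP, had 9.24, 9.08 and 9.05, against 9.61, 9.70 and 9.72 in untreated arrays. The groups were apart in each, with changes of -0.52 ± 0.09 for CAD, -0.40 ± 0.09 for DHODH and -0.55 ± 0.08 for UMPS (adjusted p = 0.00199, 0.0094 and 0.00111 in limma). These 3 calls were kept under each of the 13 other fits, with smaller changes after cyclic loess for CAD (-0.32) and UMPS (-0.33). After cyclic loess the 7 genes of this step were 3 lower and 3 higher, with a median of -0.04. The shares of all genes there were 16.2% and 14.1%.

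The CTP synthetase genes went in opposite directions. CTPS1, the isozyme gene known to be needed for lymphocyte proliferation, had 8.94, 8.94 and 8.79 in LY317615 arrays, against 9.11, 9.14 and 9.17 in untreated arrays. CTPS2 had 8.85, 8.74 and 8.90, against 8.65, 8.48 and 8.37 in untreated arrays. The changes were -0.25 ± 0.08 for CTPS1 (adjusted p = 0.0322) and 0.33 ± 0.09 for CTPS2 (adjusted p = 0.0228). The CTPS1 call was lost without LY317615 replicate 3 or any 1 untreated array (adjusted p = 0.0623 to 0.104), and its change was -0.04 after cyclic loess. The CTPS2 call was lost without LY317615 replicate 1 or 3 or untreated replicate 2 or 3 (adjusted p = 0.0592 to 0.0873), and was kept after cyclic loess. CMPK1, the kinase gene for UMP and CMP, did not pass (0.11, 95% interval -0.08 to 0.31). NME4, a mitochondrial nucleoside diphosphate kinase gene, rose by 0.36 ± 0.08 (adjusted p = 0.0098), with 7.09, 7.13 and 7.24 in LY317615 arrays, against 6.90, 6.77 and 6.72 in untreated arrays.

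**Figure D2:**
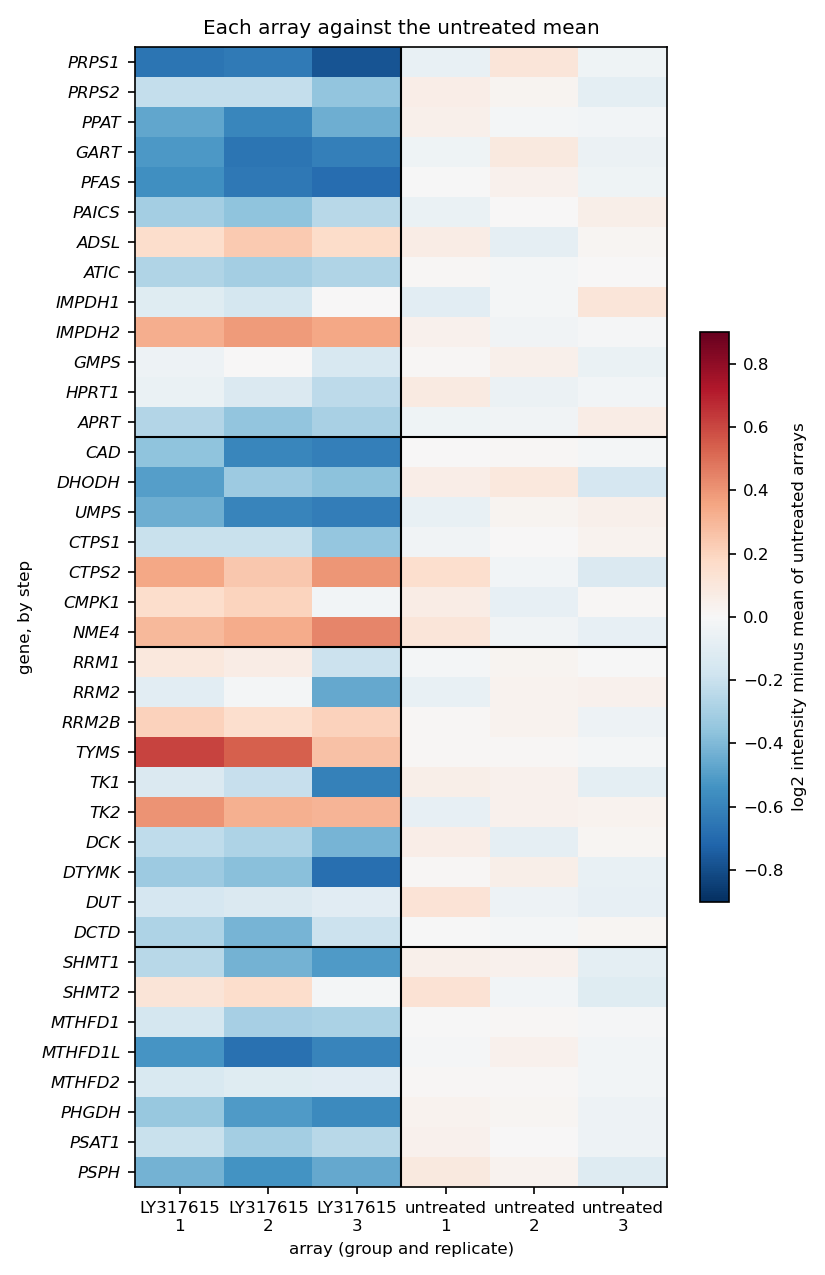
Log2 intensity of each gene (rows, by step) on each array (columns), minus the mean of the untreated arrays; blue is lower and red higher. The 3 LY317615 arrays of PRPS1, GART, PFAS and MTHFD1L are blue throughout, and TYMS is least red and TK1, RRM2 and DTYMK most blue in LY317615 replicate 3.

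Of the 10 deoxynucleotide genes, 3 fell, 2 rose and 5 did not pass, with a median change of -0.16 that became 0.04 after cyclic loess. The shares, 30% lower and 20% higher, stand beside 21.4% and 14.2% of all genes. In the brightest bin 2 of 7 were lower, against 47.6% of all genes there. After cyclic loess 1 was lower and 3 higher, against 16.2% and 14.1% of all genes. TYMS, the thymidylate synthase gene and target of fluorouracil, had the largest rise of the 38 genes. It had 10.73, 10.66 and 10.39 in LY317615 arrays, against 10.13, 10.13 and 10.11 in untreated arrays. The change was 0.47 ± 0.10 (adjusted p = 0.00597), a 1.38-fold higher level, and it was 0.57 without LY317615 replicate 3 and 0.69 after cyclic loess. ENOSF1, which overlaps TYMS on chromosome 18 in RefSeq, was not analysed here.

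The subunits of ribonucleotide reductase did not pass. RRM1, the large subunit, had 10.75, 10.72 and 10.46 in LY317615 arrays, against 10.63, 10.68 and 10.65 in untreated arrays. RRM2, the small subunit made in S phase, had 9.89, 9.96 and 9.52, against 9.92, 10.01 and 10.02 in untreated arrays. The groups overlapped in both, with changes of -0.01 for RRM1 (95% interval -0.22 to 0.20) and -0.19 for RRM2 (95% interval -0.45 to 0.07). Without LY317615 replicate 3 these were 0.08 and -0.06. RRM2B, the p53-induced small subunit, had 9.60, 9.54 and 9.60 in LY317615 arrays, against 9.41, 9.43 and 9.35 in untreated arrays; the groups were apart, and the change of 0.19 ± 0.07 did not pass (adjusted p = 0.0672). It passed after cyclic loess (0.00357), with an intensity trend (0.0162) and without the dimmest 30% of genes (0.0359).

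The thymidine kinase genes also differed. TK1, the cytosolic enzyme gene of proliferating cells, had 10.06, 9.99 and 9.59 in LY317615 arrays, against 10.25, 10.23 and 10.11 in untreated arrays. TK2, the mitochondrial enzyme gene, had 7.14, 7.05 and 7.04, against 6.66, 6.77 and 6.77 in untreated arrays. TK2 rose by 0.34 ± 0.07 (adjusted p = 0.00777), while TK1 changed by -0.32 ± 0.12 and did not pass (adjusted p = 0.074). TK1 was at -0.17 without LY317615 replicate 3 (adjusted p = 0.141) and at -0.09 after cyclic loess (0.553). It did pass without LY317615 replicate 1 (0.0452), with array medians set equal (0.0419), with an intensity trend (0.0109) and without the dimmest 30% of genes (0.0461). DTYMK, whose kinase makes the thymidine diphosphate, had 6.53, 6.48 and 6.18 in LY317615 arrays, against 6.87, 6.91 and 6.79 in untreated arrays. It fell, at -0.46 ± 0.10 (adjusted p = 0.00842), and its 2 probe sets carried the same values. Of the other deoxynucleotide enzymes, the deoxycytidine kinase gene DCK and the dCMP deaminase gene DCTD fell, at -0.31 ± 0.08 and -0.30 ± 0.08 (adjusted p = 0.0186 and 0.0208 in limma), neither passing after cyclic loess. Without single arrays DCK missed the threshold for untreated replicates 1 and 3, and DCTD for LY317615 replicate 2 and each untreated array (adjusted p = 0.0546 to 0.0673 over both genes). DUT, whose enzyme removes dUTP, did not pass (-0.13, 95% interval -0.31 to 0.05).

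**Figure D3:**
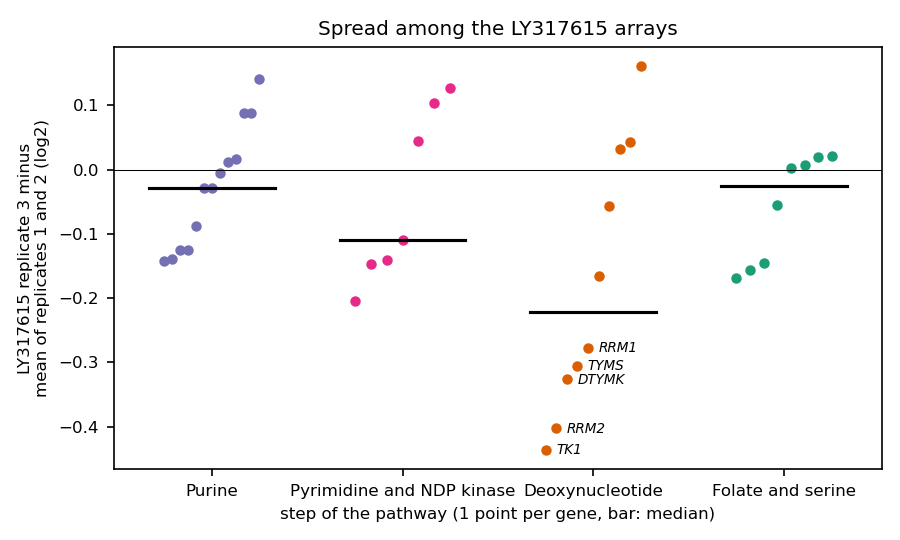
For each gene (1 point), the log2 intensity in LY317615 replicate 3 minus the mean of LY317615 replicates 1 and 2, by step, with bars at the median. The deoxynucleotide median was -0.22, with TK1, RRM2, DTYMK, TYMS and RRM1 lowest, against -0.03 for the purine and the folate and serine genes.

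LY317615 replicate 3 differed most from the other treated arrays in the deoxynucleotide genes. Relative to the mean of LY317615 replicates 1 and 2 its median log2 difference was -0.22 in these genes, against -0.03 for purine genes, -0.11 for pyrimidine genes, -0.03 for folate and serine genes and -0.01 for all genes. It was the lowest of the treated arrays in 7 of the 10, and in 41.8% of all genes. TK1 was at -0.44, RRM2 at -0.40, DTYMK at -0.33, TYMS at -0.31 and RRM1 at -0.28. The 18 fixed genes of S phase and proliferation showed the same, with a median of -0.30 and replicate 3 lowest in all 18. Between the groups, 7 of those 18 fell and 0 rose (38.9% lower, against 21.4% of all genes; 13 of the 18 lie in the brightest bin, where 47.6% of all genes were lower, and 5 in the next, where 37% were), among them the helicase genes MCM6 (-0.98 ± 0.08) and MCM5 (-1.04 ± 0.11) and the uracil glycosylase gene UNG (-0.95 ± 0.10). Their higher count was 1 without LY317615 replicate 3 and 3 after cyclic loess. The part of such genes' shift in the deoxynucleotide values was not tested.

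Of the 8 folate and serine genes, 6 fell, 0 rose and 2 did not pass, with a median of -0.32. The shares, 75% lower and 0% higher, stand beside 21.4% and 14.2% of all genes. In the brightest bin 5 of 7 were lower, against 47.6% of all genes there. After cyclic loess 4 fell and 1 rose, with a median of -0.15, against 16.2% lower and 14.1% higher among all genes. All 3 genes of serine synthesis from glycolysis fell on the deposited scale, and all 3 lie in the brightest bin. PHGDH, the first enzyme gene of the path, had 11.68, 11.51 and 11.45 in LY317615 arrays, against 12.05, 12.04 and 11.98 in untreated arrays. PSPH, the last, had 10.19, 10.08 and 10.15, against 10.70, 10.64 and 10.50 in untreated arrays. PSAT1, the aminotransferase gene between them, had 11.96, 11.85 and 11.91, against 12.19, 12.16 and 12.11 in untreated arrays. Every treated array lay below every untreated one, with changes of -0.47 ± 0.08 for PHGDH, -0.47 ± 0.08 for PSPH and -0.25 ± 0.07 for PSAT1 (adjusted p = 0.00266, 0.00253 and 0.0263 in limma). After cyclic loess PHGDH was at -0.27 and PSPH at -0.25, still past the threshold. PSAT1 did not pass after cyclic loess (-0.05), nor without LY317615 replicate 2 or any 1 untreated array (adjusted p = 0.0579 to 0.0815). A further probe set of PSPH fell, at -0.52 ± 0.09, and RefSeq lists 1 PSPH pseudogene, whose share in the signal was not tested.

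Among the folate enzymes, MTHFD1L fell most. It encodes the mitochondrial enzyme that releases formate for the cytosol, and it had 9.13, 8.99 and 9.07 in LY317615 arrays, against 9.65, 9.70 and 9.63 in untreated arrays. The change was -0.60 ± 0.07 (adjusted p = 0.000464), a 1.51-fold lower level, and it was -0.38 after cyclic loess, still past the threshold. SHMT1, the cytosolic serine hydroxymethyltransferase gene, fell, at -0.40 ± 0.09 (adjusted p = 0.00886), with 6.88, 6.70 and 6.62 in LY317615 arrays, against 7.18, 7.17 and 7.04 in untreated arrays. MTHFD1, the cytosolic trifunctional enzyme gene, fell, at -0.25 ± 0.07 (adjusted p = 0.0303), a call lost after cyclic loess (-0.02) and without any 1 array other than LY317615 replicate 1 (adjusted p = 0.0555 to 0.0909). The mitochondrial genes SHMT2 and MTHFD2 did not pass. SHMT2 changed by 0.08, with a 95% interval of -0.12 to 0.29, and MTHFD2 by -0.12, with an interval of -0.27 to 0.04. MTHFD2 passed when limma's prior followed intensity (0.0267), and a further probe set of MTHFD2, at -0.15, did not pass.

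Enzymes of 1 reaction, or of matching reactions in different compartments, were compared by the log2 ratio of their genes within each array. Such a ratio shows unequal change, and not which gene is more abundant. Of 8 pairs listed, NME1 over NME4 could not be formed, and in the other 7 the ratios of the 2 groups did not overlap. How often the ratios of other gene pairs are apart was not counted, so this is not shown to be particular to isozymes. Among single genes, 49.8% of all genes were apart. The exact two-sided permutation test gave p = 0.1 for each, which is the smallest that 3 arrays against 3 allow, and 0.1 after adjustment over the 7 pairs, so no pair could pass. The ratio of TK1 over TK2 was lower in treated cells, at -0.66 ± 0.14 (difference of mean ratios ± SE) and that of CTPS1 over CTPS2 also, at -0.58 ± 0.13. For IMPDH1 over IMPDH2 the difference was -0.44 ± 0.09, for PRPS1 over PRPS2 -0.43 ± 0.07, for RRM2 over RRM2B -0.38 ± 0.16 and for MTHFD1L over MTHFD1 -0.35 ± 0.02. The ratio of SHMT2 over SHMT1 was higher, by 0.48 ± 0.08. Without LY317615 replicate 3 the RRM2 over RRM2B difference was -0.23, and after cyclic loess that of TK1 over TK2 was -0.43.

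**Figure D4:**
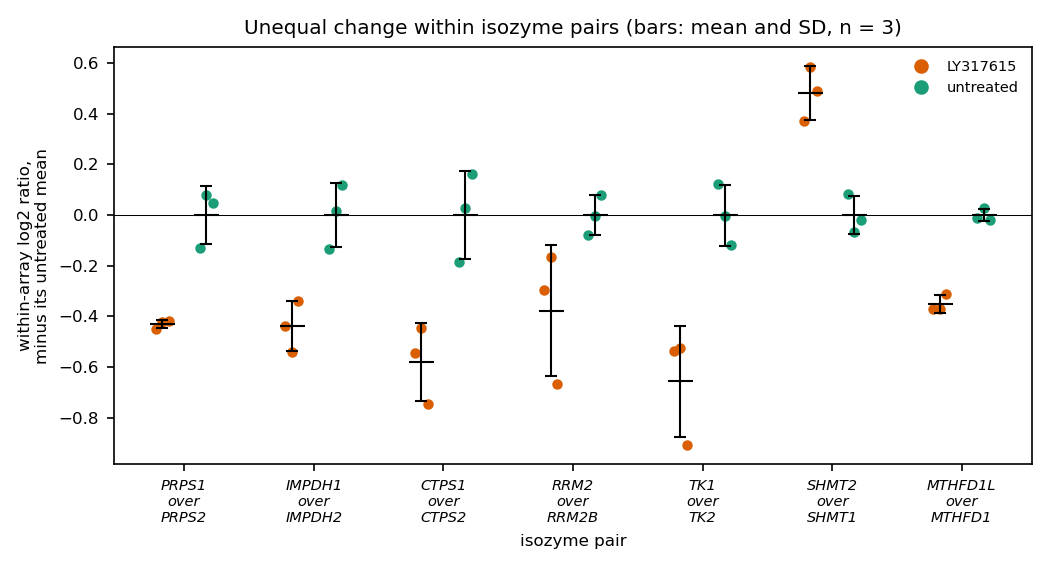
Within-array log2 ratio of each gene pair, minus its untreated mean (y axis), for LY317615 arrays (orange, left) and untreated arrays (green, right), 3 arrays a group; black marks are the mean and SD. All 3 LY317615 points lie outside the untreated range in each of the 7 pairs, above it only for SHMT2 over SHMT1.

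Other genes of these pathways were counted from lists, to be read against the 21.4% lower and 14.2% higher among all genes. Among 16 measured genes of folate uptake and recycling, 7 fell and 3 rose (43.8% and 18.8%), with a median of -0.02. In the brightest bin 3 of 3 were lower, and in the next 1 of 4, against 47.6% and 37% of all genes there. After cyclic loess 5 were lower and 3 higher, against 16.2% and 14.1% of all genes. MTR, the methionine synthase gene, and MTRR, which encodes its reductase, fell, at -0.63 ± 0.08 each (adjusted p = 0.0004 and 0.000447 in limma). SLC25A32, a mitochondrial folate carrier gene, fell, at -0.36 ± 0.07, and DHFR2, a mitochondrial dihydrofolate reductase gene, rose by 0.36 ± 0.08. After cyclic loess SLC25A32 did not pass (-0.14, adjusted p = 0.123) and MTRR was at -0.41. The lower count of this list was 4 without LY317615 replicate 2 or 3 or untreated replicate 2, and 3 without untreated replicate 3.

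Of 19 genes of purine interconversion and turnover, 4 fell and 3 rose, with a median of 0.09. These shares, 21.1% and 15.8%, were near those of all genes. The adenosine deaminase gene ADA had 8.97, 8.88 and 8.80 in LY317615 arrays, against 9.69, 9.70 and 9.59 in untreated arrays, a change of -0.78 ± 0.08 (adjusted p = 0.000185). PNP, whose phosphorylase acts after ADA, fell, at -0.53 ± 0.07, the mitochondrial adenylate kinase gene AK4 at -0.83 ± 0.09 and MTAP, which recycles adenine from methylthioadenosine, at -0.57 ± 0.08. The AK4 value is that of its brightest probe set. With the mean of its probe sets AK4 was at -0.31, so they did not all fall alike. After cyclic loess PNP was at -0.31. The higher count of this list was 1 without untreated replicate 1, and 5 after cyclic loess or with array weights.

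Among 16 genes of pyrimidine salvage and turnover, 4 fell and 4 rose (25% each), with a median of 0.09. The lower share was near that of all genes. UPP1, the uridine phosphorylase gene, had 6.84, 7.02 and 6.78 in LY317615 arrays, against 7.69, 7.82 and 7.89 in untreated arrays, a change of -0.92 ± 0.09 (adjusted p = 0.000164). UCK2, the uridine-cytidine kinase gene, fell, at -0.65 ± 0.08 and the nucleotidase gene NT5C3B at -0.36 ± 0.07. After cyclic loess NT5C3B did not pass (-0.16, adjusted p = 0.114) and UCK2 was at -0.43. CMPK2, an interferon-induced mitochondrial nucleotide kinase gene, rose by 0.55 ± 0.09 (adjusted p = 0.00221). The higher count was 2 when any array other than untreated replicate 1 was left out, against the 11.5% of all genes higher without LY317615 replicate 3. It was also 2 after array medians were set equal (9.83% of all genes) and after cyclic loess (14.1%), which left 2 lower.

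Of 13 genes of deoxynucleotide pools and nucleotide carriers, 8 fell and 1 rose (61.5% and 7.69%), with a median of -0.36. In the brightest bin 3 of 5 were lower, and in the next 4 of 6, against 47.6% and 37% of all genes there. After cyclic loess 6 were lower, against 16.2% of all genes. The gene that rose, SAMHD1, encodes an enzyme that degrades deoxynucleotides. It had 9.98, 10.09 and 9.90 in LY317615 arrays, against 9.34, 9.45 and 9.49 in untreated arrays, a change of 0.56 ± 0.08 (adjusted p = 0.00113). DGUOK, the mitochondrial deoxyguanosine kinase gene, fell, at -0.59 ± 0.09, the nucleoside transporter gene SLC29A3 at -0.77 ± 0.10 and the mitochondrial pyrimidine nucleotide carrier gene SLC25A33 at -0.52 ± 0.08, which was -0.33 after cyclic loess.

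Of the 6 measured regulators known to act on members, 3 fell and 0 rose, against 21.4% lower and 14.2% higher among all genes. By mean intensity 3 of the 6 lie in the brightest bin and 3 in the next, where 47.6% and 37% of all genes were lower. After cyclic loess 1 was lower and 1 higher, and without LY317615 replicate 3 only 1 was lower. MYC, known to activate purine and pyrimidine synthesis genes, had 10.31, 10.16 and 10.44 in LY317615 arrays, against 11.71, 11.57 and 11.59 in untreated arrays, a change of -1.32 ± 0.09 (adjusted p = 3.55e-05). E2F2 and the E2F partner gene TFDP1, of the family that drives S-phase genes, changed by -0.40 ± 0.11 and -0.36 ± 0.11 (adjusted p = 0.0228 and 0.0297 in limma); both were lost without LY317615 replicate 3 (0.0649 and 0.0546), untreated replicate 1 or untreated replicate 2, E2F2 also without LY317615 replicate 2, and TFDP1 also without untreated replicate 3. Neither passed after cyclic loess, where ATF4 was higher (0.21, adjusted p = 0.0325). E2F1, E2F3 and ATF4, an activator of serine synthesis genes, did not pass, with changes of 0.05, -0.01 and 0.01. The ATF4 value is that of its brightest probe set. The mean of its probe sets gave a negative change, printed in the last section.

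**Figure D5:**
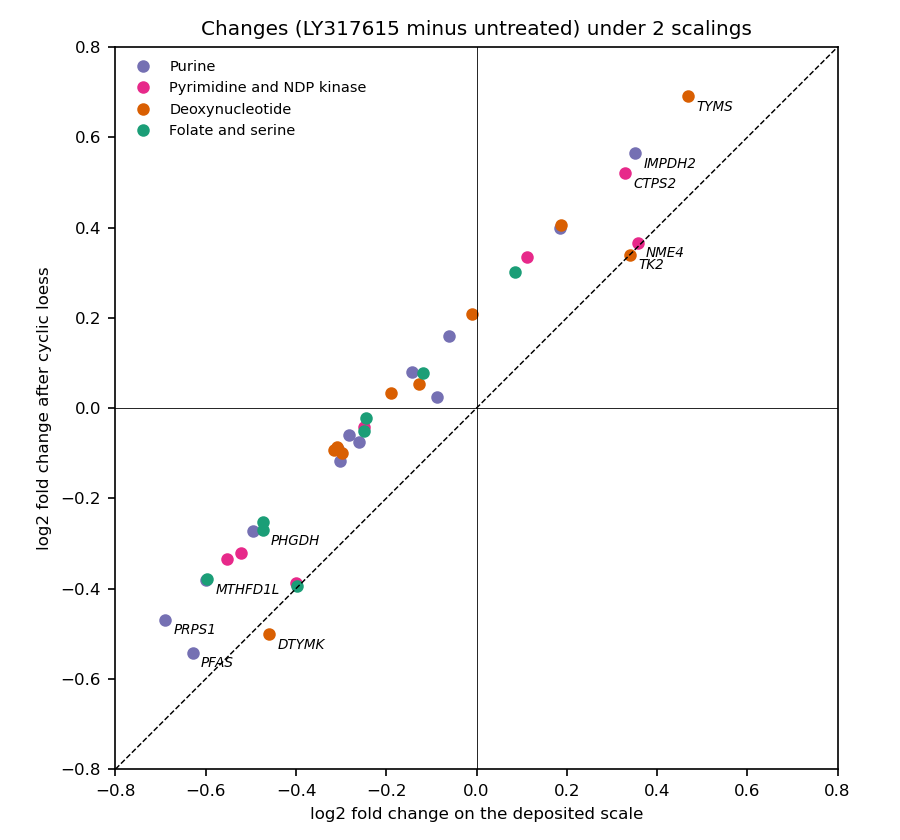
Log2 fold change of each gene on the deposited scale (x axis) and after cyclic loess (y axis), coloured by step; the dashed line marks equal values. Most points lie above the line; PRPS1, PFAS, DTYMK, MTHFD1L and PHGDH stay below 0, and TYMS (0.47 and 0.69), IMPDH2 (0.35 and 0.56), CTPS2, NME4 and TK2 stay above 0.

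After cyclic loess, 4 purine genes (PRPS1, PPAT, GART and PFAS), 3 pyrimidine genes (CAD, DHODH and UMPS), 1 deoxynucleotide gene (DTYMK) and 4 folate and serine genes (MTHFD1L, SHMT1, PHGDH and PSPH) were still lower. These 12 were all among the 21 that fell on the deposited scale. The 5 genes that rose were still higher, joined by ADSL, CMPK1, RRM2B and SHMT2.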

How the data were processed

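The authors deposited normalized probe set intensities on a linear scale for 33297 probe sets on 6 arrays. The tools listed, per the submitters' processing notes, are GCOS 1.4, RMA and Expression Console, with no role for any of them and no genome build. How the values came to be on a linear scale is not given. Log2 was taken with no added constant, since 0 values were at or below 0. Probe sets with exactly 1 gene symbol (19460) were kept, the brightest per gene. Differences (LY317615 minus untreated) were tested on all 18417 genes with limma 3.58.1 in R 4.3.3 (lmFit, eBayes), two-sided, with Benjamini-Hochberg adjustment and a threshold of 0.05; errors are SE from that fit. The fit was tested on simulated data, where not all of the planted changes were recovered. Scan dates were not used, so batches were not examined. Deviations of same-numbered arrays from their group means had correlations of -0.02, 0.09 and 0.07, against -0.11 to 0.04 for differently numbered arrays. All were low, and numbers were not treated as pairs, although low values cannot exclude a pairing. The members, lists, steps, pairs and tests were chosen with earlier results of these data known. All members were named, as were up to 4 called genes of each other list by smallest adjusted p and all regulators. SON, the motifs, the smaller groups of steps, the intensity bins and the comparison of LY317615 replicate 3 with replicates 1 and 2 were chosen after these values were seen. Python 3.11.15 and scipy 1.17.1 made the other tables.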

Additional observations from a re-analysis of the deposited data

How the results depend on the processing

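Under 13 other fits, 16 of the 26 called members kept direction and call, 12 lower and 4 higher. Cyclic loess moved most: 12 members were lower and 9 higher, and the median change was -0.055 over all members, -0.075 for purine, -0.042 for pyrimidine, -0.15 for folate and serine, and 0.043, a reversed sign, for deoxynucleotide genes. Signs also turned there for IMPDH1 (0.025), GMPS (0.16), HPRT1 (0.080), RRM1 (0.21), RRM2 (0.033), DUT (0.053), MTHFD2 (0.077) and E2F3 (0.15), none of them called. The cause was not tested. An adjusted p of 0.01 left 12 members lower. With array medians set equal the pyrimidine median was -0.31, E2F1 was at -0.0049 and ATF4 at -0.050; that scaling moved the median of all genes to -0.04. Leaving out 1 array at a time gave 14 to 21 lower members, 4 or 5 higher, and a median of -0.29 to -0.22. The fewest lower calls, 14, came without untreated replicate 3, and 15 without untreated replicate 1. Values near 0 turned with the array left out: RRM1 ranged from -0.065 to 0.081, E2F3 from -0.062 to 0.086 and ATF4 from -0.017 to 0.027. RRM1 was at 0.043 and E2F3 at 0.048 with array weights, and ATF4 at -0.11 with the mean of its probe sets. With the replicate number as a block, 20 members were lower and 5 higher; the block dropped CTPS1 and MTHFD1 (adjusted p = 0.0549 and 0.0508) and added TK1 (0.0346). It left 2 pyrimidine salvage genes higher. A shared number is not known to be a shared culture. Shares of all genes were not counted with the block or at an adjusted p of 0.01. Of the fits without 1 array, only that without LY317615 replicate 3 has them. Whether members lost more calls than other genes in the rest was not tested. No detection calls were available, so what lies above background is not known.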
